A study of Mus musculus with 20 samples.

Results

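The 10 genes described here are Mr1 and 9 genes of the machinery that builds and loads MHC class I molecules: B2m, H2-K1, H2-D1, Tap1, Tap2, Tapbp, Psmb8, Psmb9 and Nlrc5. They were taken by gene symbol from a table of 59311 annotated mouse genes, each symbol matched 1 gene, and all 10 were among the 17248 genes tested. MR1 is a class I-like heavy chain that carries vitamin B metabolites rather than peptides to the cell surface and shows them to mucosal-associated invariant T (MAIT) cells, innate-like lymphocytes of the liver among other tissues. Like classical class I heavy chains, it pairs with the light chain beta-2 microglobulin. The classical chains are filled with peptides that the immunoproteasome cuts, the TAP transporter carries into the endoplasmic reticulum and the loading complex selects, and NLRC5 drives transcription of many of these genes.

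RNA was sequenced from intrahepatic monocyte-derived macrophages (MoMac) of 10 male C57BL/6J mice aged 10 to 12 weeks when fibrosis was induced, without any engineered allele. Every mouse, controls included, received carbon tetrachloride (CCl4, 0.6 ml/kg, 2 injections a week for 4 weeks), so no unfibrosed liver was compared here. Mice 11 to 15 received the vehicle (1% DMSO in PBS) and mice 16 to 20 acetyl-6-formylpterin (Ac-6-FP, 0.25 mg/kg), an MR1 ligand that does not activate MAIT cells, from 2 hours before the final CCl4 injection and daily over the 2 days after it. From each liver, Ly6Chi and Ly6Clo cells were sorted as F4/80+ and CD11b+ cells negative for Ly6G, CD11c and CD3, which gave 20 libraries in 4 groups of 5.

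Libraries held 5693049 to 18682437 reads on genes and 5343 to 15766 genes with a read. The Ly6Clo library of vehicle mouse 13 was lowest in both and listed 2860 of 6711 genes at 0 that had a median of at least 100 normalized counts in the other libraries. Genes detected also moved with the treatment, from a median of 9749 (Ly6Chi) and 10379 (Ly6Clo) in vehicle mice to 13622 and 14084 in Ac-6-FP mice. The macrophage markers Adgre1, Itgam, Csf1r and Cd68 were above 0 in every group, and the monocyte gene Ly6c2 lay at 4930 to 10012 normalized counts in Ly6Chi against 284 to 1014 in Ly6Clo libraries. The Ly6Clo gate also held other transcripts: the summed level of 8 T, natural killer (NK) and MAIT cell markers was 23618 to 50151 in Ly6Clo and 0 to 363 in Ly6Chi libraries, led by the NK gene Gzma (Cd3e was at 0 in all but the Ly6Clo Ac-6-FP group), and that of 5 neutrophil markers was 10238 to 124789 against 3045 to 6851. In Ly6Clo the neutrophil sum was led by Retnlg alone (9064 to 117062). S100a8 had means of 3982 in Ly6Chi and 4142 in Ly6Clo libraries. Itgax, which encodes the CD11c that the sort excluded, was at 0 in all Ly6Chi libraries and reached 3302 normalized counts in Ly6Clo. In sorted bulk RNA, fewer cells of a type and less RNA per cell cannot be told apart.

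The sequences before the start sites of Mr1, B2m, H2-K1 and H2-D1 are shown because B2m and H2-K1 passed the test between the subsets, with the related heavy chain H2-D1 and Mr1 itself, which did not pass, for comparison. Each is the 250 bases before the start of the gene in RefSeq on GRCm38, with matches to 3 letter strings in capitals. For H2-K1 a second window, from another start (chr17:34000334-34000583, minus strand), is not printed. It held the same matches and a further CCAAT, 6 to 2 bases before that start. The strings, searched on both strands, were GGATTCC (the middle of the kappa B element of class I genes), TGACG (found in X2 boxes) and CCAAT (found in Y boxes, ATTGG on the other strand). The strings were kept from a larger number that were tried, after their matches had been seen. No base was matched by more than 1 string.
Mr1 (chr1:155146815-155147064, minus strand): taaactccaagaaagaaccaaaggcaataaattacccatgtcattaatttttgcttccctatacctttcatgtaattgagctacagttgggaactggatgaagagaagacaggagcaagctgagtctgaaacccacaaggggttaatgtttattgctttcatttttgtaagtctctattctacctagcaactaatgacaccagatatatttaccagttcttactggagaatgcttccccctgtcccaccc
B2m (chr2:122147437-122147686, plus strand): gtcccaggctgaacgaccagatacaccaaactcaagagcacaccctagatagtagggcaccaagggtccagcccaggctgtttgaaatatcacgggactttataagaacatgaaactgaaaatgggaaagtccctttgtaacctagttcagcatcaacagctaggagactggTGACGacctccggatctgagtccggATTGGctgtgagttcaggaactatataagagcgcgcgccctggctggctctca
H2-K1 (chr17:34000348-34000597, minus strand): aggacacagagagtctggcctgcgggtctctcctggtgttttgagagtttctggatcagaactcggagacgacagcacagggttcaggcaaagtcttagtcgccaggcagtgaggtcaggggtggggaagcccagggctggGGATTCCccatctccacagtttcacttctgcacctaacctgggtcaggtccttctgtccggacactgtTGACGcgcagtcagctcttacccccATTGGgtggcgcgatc
H2-D1 (chr17:35262844-35263093, plus strand): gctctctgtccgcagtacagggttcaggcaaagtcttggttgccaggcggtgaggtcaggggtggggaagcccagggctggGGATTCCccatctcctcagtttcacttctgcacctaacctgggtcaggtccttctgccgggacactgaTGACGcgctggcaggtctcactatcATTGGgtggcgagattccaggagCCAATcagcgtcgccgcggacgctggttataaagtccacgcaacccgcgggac
Among 32851 windows of the same length, 3.17% held GGATTCC, 17.8% TGACG and 33.8% CCAAT. Windows were found for 8 of the 10 genes, and not for Tap2 and Nlrc5. GGATTCC was in 2 of the 8 (H2-K1 and H2-D1), TGACG in 5 (B2m, H2-K1, H2-D1, Tap1 and Psmb9) and CCAAT in 6 (the same 5 and Tapbp). In B2m, H2-K1 and H2-D1 alike, TGACG began 25 bases before ATTGG, a spacing noticed on reading the windows and held by 0.0913% of all of them. The Mr1 and Psmb8 windows held none of the 3 strings, which says only that these letters are not in them.

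Mr1 (chromosome 1, 155127277 to 155146814, minus strand, GRCm38) was near the limit of detection and no difference between subsets or treatments passed the test. In Ly6Chi cells it stood at 7.97, 121, 120, 0 and 0 normalized counts in vehicle mice 11 to 15. It stood at 40.6, 76.9, 0, 0 and 32.8 in Ac-6-FP mice 16 to 20. In Ly6Clo cells the values were 35.9, 0, 0, 0 and 117 with vehicle and 0, 0, 0, 33.4 and 71.4 with Ac-6-FP. Each group thus held libraries at 0 and libraries above 0, and all 4 groups overlapped.

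The Mr1 values were split: 10 libraries held no read, and the other 10 held 9 to 136 reads, with none from 1 to 8. A count of 0 allows up to 3 reads, or 1.87 to 6.26 normalized counts across the libraries, for counting error alone. Genes within 1.5-fold of the mean of Mr1 (2339 genes) were at 0 in a median of 9 libraries. Only mice 11 and 20 had Mr1 reads in both subsets, and there Ly6Clo exceeded Ly6Chi by 4.50-fold and 2.18-fold. The subset difference was 1.04 on the log2(normalized count + 1) scale (95% interval -2.11 to 4.19, limma adjusted p = 0.725), and the interval spans changes of several-fold either way. Ac-6-FP minus vehicle was -0.05 in Ly6Chi (-4.68 to 4.57) and -0.16 in Ly6Clo cells (-4.53 to 4.21), with adjusted p of 1.00 and 0.999. A change of Mr1 RNA by its ligand was therefore not detectable given this spread between libraries. Why Mr1 was at 0 in some libraries and not in others was not tested.

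**Figure D1:**
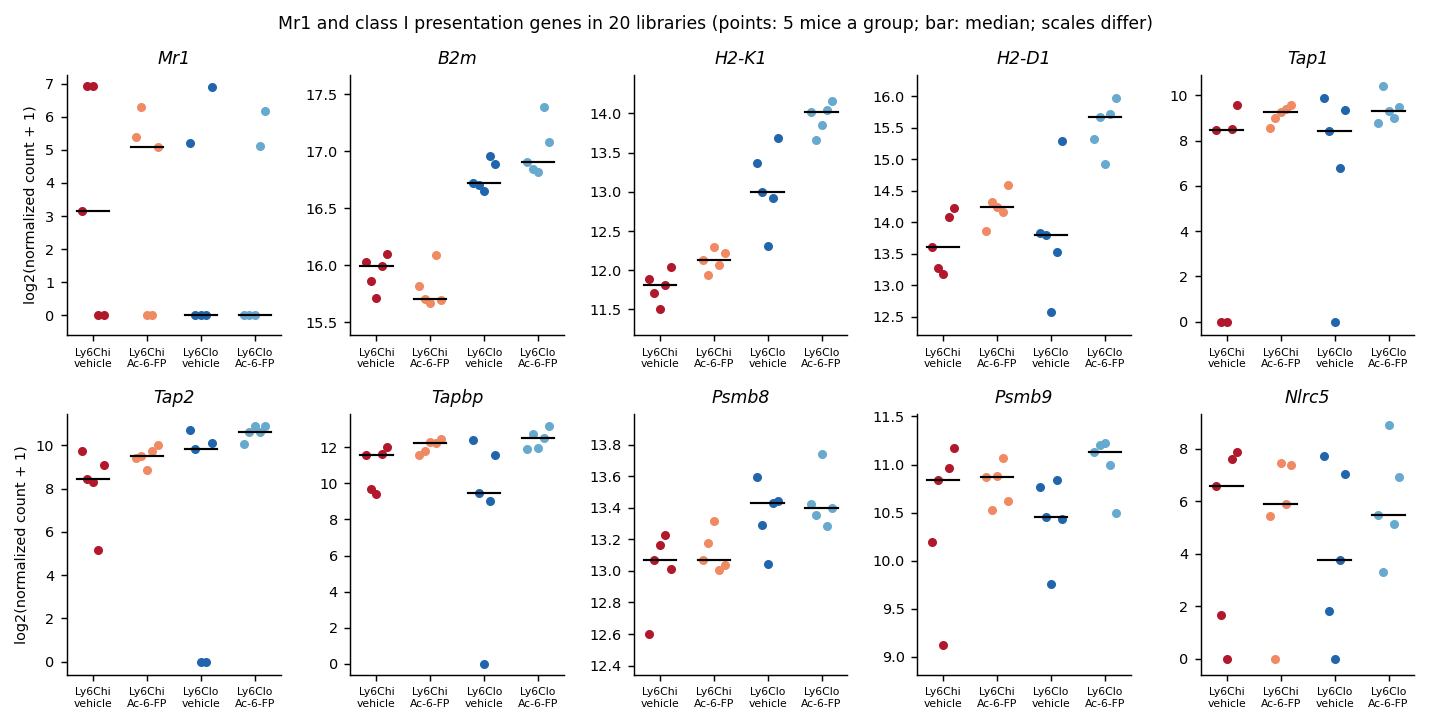
Level of each of the 10 genes in 20 libraries, as log2(normalized count + 1) on the vertical axis (scales differ between genes), by subset and treatment on the horizontal axis. Points are mice (5 a group) and bars are medians. B2m and H2-K1 separate Ly6Chi from Ly6Clo libraries without overlap, and Mr1 is at 0 in 10 of the 20 libraries.

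The genes whose profile was most like that of Mr1 were found by Pearson correlation of log2(normalized count + 1) over 20 libraries, among 8784 genes with a group mean of at least 100. They were Zfp961 (0.79), a gene with no symbol (0.774), Epc2 (0.745), Kif20a (0.725) and Arsk (0.708). These 5 also led without the Ly6Clo library of mouse 13, with correlations of 0.69 to 0.778 over 19 libraries. All 5 were themselves at 0 in some libraries, Zfp961 in 3 of the 5 Ly6Clo vehicle libraries, and the points share library and depth, so these values are a description only.

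B2m, which encodes the light chain shared by MR1 and the classical class I molecules, was lower in the Ly6Chi than in the Ly6Clo library of every mouse. In Ly6Chi cells it stood at 66669, 59476, 53506, 65233 and 70193 normalized counts with vehicle and at 57664, 53162, 52129, 69495 and 52946 with Ac-6-FP. In Ly6Clo cells it stood at 108173, 106813, 102820, 126962 and 121470 with vehicle and at 122579, 117506, 115179, 171236 and 138248 with Ac-6-FP. The highest Ly6Chi library lay below the lowest Ly6Clo library. The Ly6Clo to Ly6Chi ratio within a mouse ran from 1.62 to 2.61 (median 2.04), and the log2 difference was -1.03 ± 0.06 (SE, 10 mice, limma adjusted p = 4.47e-07). Among the 10 genes B2m and H2-K1 had the same direction in all 10 mice, as 3.85% of all genes did. Under quantile normalization the B2m difference was -0.59 (adjusted p = 0.000443).

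H2-K1, a classical heavy chain of the H-2K locus, showed the wider gap of the genes that passed the test. Its Ly6Chi values were 3797, 3342, 2904, 3594 and 4232 with vehicle and 4476, 3923, 5016, 4283 and 4773 with Ac-6-FP. Its Ly6Clo values were 10575, 8197, 5084, 7726 and 13132 with vehicle and 16612, 12934, 14815, 16888 and 18352 with Ac-6-FP. All 10 Ly6Clo libraries lay above all 10 Ly6Chi libraries, by a ratio within a mouse of 1.75 to 3.94 (median 3.03). The log2 difference was -1.54 ± 0.12 (SE, 10 mice, limma adjusted p = 4.58e-06). In vehicle mice alone it was -1.26 and missed the threshold (adjusted p = 0.0608), and in Ac-6-FP mice alone it was -1.82 (adjusted p = 0.00257).

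H2-D1, the heavy chain of the H-2D locus, did not pass the test between the subsets. Its Ly6Chi values were 12495, 9950, 9279, 17277 and 19084 with vehicle and 14909, 20360, 19296, 18363 and 24767 with Ac-6-FP. Its Ly6Clo values were 14577, 14219, 6113, 11857 and 40057 with vehicle and 40933, 52011, 30970, 53860 and 64239 with Ac-6-FP. Ly6Clo exceeded Ly6Chi in 8 of 10 mice, the exceptions being vehicle mice 13 and 14 (log2 difference -0.71, SE 0.22, adjusted p = 0.0954). The gap was -0.13 in vehicle mice alone (adjusted p = 0.89) and -1.28 in Ac-6-FP mice alone (adjusted p = 0.0171). Without mouse 13 the pooled difference was -0.85 (adjusted p = 0.0265), and without mouse 14 it was -0.85 (adjusted p = 0.0476). Reads can be shared among class I heavy chains: 1.12% of the 75-base windows of H2-K1 transcripts and 6.33% of those of H2-D1 also stand in transcripts of other genes, so a part of their counts is uncertain.

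Of the 10 genes, 2 passed the test between the subsets (B2m and H2-K1, both lower in Ly6Chi), where 5.19% of all 17248 genes tested did and 3.44% passed as lower in Ly6Chi. Calls were more frequent among highly expressed genes, and B2m and H2-K1 have means above 1000 normalized counts. Of the 2047 genes of at least that mean, 190 passed as higher and 218 as lower in Ly6Chi. edgeR also called 2 of 10, and the other settings tried gave 1 (vehicle mice alone) to 4 (array weights, or without mouse 13). Markers of other cell types moved with this comparison, all that passed the test being lower in Ly6Chi: 3 of 6 tested for T, NK and MAIT cells, 2 of 5 for neutrophils, 1 of 4 for B cells (Cd79a), 1 of 5 for dendritic cells (Flt3), 1 of 3 for hepatocytes (Apoa1), 1 of 3 for endothelial cells (Clec4g), 1 of 4 for Kupffer cells (Marco) and none of 2 for stellate cells. The summed levels of the B cell markers were 80.2 to 743 normalized counts in Ly6Chi and 0 to 1131 in Ly6Clo libraries, those of hepatocytes 103 to 1201 and 1018 to 2184, and those of dendritic cells 0 to 358 and 176 to 1013. Endothelial markers summed to 0 to 27.6 and 0 to 265, and Kupffer cell markers to 0 to 246 and 0 to 808. Those of stellate cells and myofibroblasts summed to 0 to 968 in Ly6Chi and 0 to 281 in Ly6Clo, and Acta2 among them had higher values in Ly6Chi in 9 of 10 mice (2.89, adjusted p = 0.127). Their part in the B2m and H2-K1 differences was not tested.

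The transporter and loading genes gave no call between the subsets. Tap1 and Tap2, the 2 chains of the peptide transporter, and Tapbp, which encodes tapasin and bridges the transporter to class I molecules, lie with H2-K1, Psmb8 and Psmb9 within 300.4 kb of chromosome 17. Tap2 values were higher in Ly6Clo in all 8 mice with reads in both subsets, by 1.59- to 4.14-fold (median 2.01). The fitted difference was nevertheless 0.45 (Ly6Chi minus Ly6Clo, 95% interval -1.60 to 2.50), since the Ly6Clo libraries of mice 13 and 14 were listed at 0. Without mouse 13 it was -0.42, without mouse 14 -0.07, and in Ac-6-FP mice alone -1.12 (adjusted p = 0.0826). Tap1 (-0.90, interval -2.64 to 0.84) and Tapbp (1.00, interval -0.84 to 2.84) had no common direction, with Ly6Clo higher in 4 of 8 and 5 of 9 mice with reads in both subsets. Without mouse 12 the Tap1 difference was -0.066, and without mouse 13 that of Tapbp was 0.064.

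In Ly6Clo cells Tap2 stood at 1681, 925, 0, 0 and 1115 normalized counts with vehicle and at 1083, 1596, 1934, 1557 and 1882 with Ac-6-FP. Its Ly6Chi values were 851, 353, 315, 34.8 and 545 with vehicle and 682, 727, 467, 855 and 1032 with Ac-6-FP. The vehicle libraries were spread over a wide range, and the Ac-6-FP libraries lay within it or above it. Tapbp in Ly6Clo cells ran from 0 to 5376 with vehicle and from 3789 to 9412 with Ac-6-FP, and in Ly6Chi cells from 677 to 4197 and from 3024 to 5658. Tap1 was listed at 0 in 3 vehicle libraries (Ly6Chi of mice 12 and 13 and Ly6Clo of mouse 13) and ran from 109 to 952 in the other vehicle libraries and from 377 to 1354 with Ac-6-FP. The groups overlapped for each of these genes. Of the 75-base windows of Tapbp transcripts 17.2%, and of those of Tap2 8.55%, also stand in transcripts of overlapping or related genes.

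The zeros of the loading genes stood where few genes were detected. Without Mr1, the other 9 genes had 9 values of 0 in 180, all in the 10 libraries with 5343 to 13098 genes detected and none in the 10 with 13481 to 15766. The Ly6Clo library of mouse 13 alone listed 5 of the 10 genes at 0. For Mr1, 7 of its 10 zeros were in the libraries with fewer genes and 3 in the others. Fewer genes were detected in vehicle libraries. The part of detection in the Ac-6-FP differences of Tap1, Tap2, Tapbp and Nlrc5 therefore cannot be told apart from that of treatment.

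**Figure D2:**
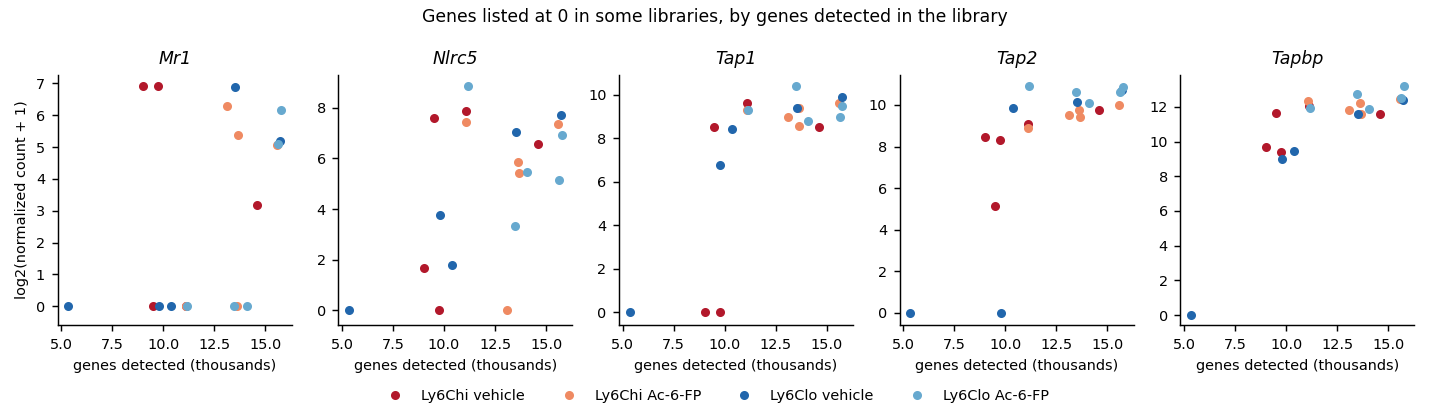
Levels of Mr1, Nlrc5, Tap1, Tap2 and Tapbp as log2(normalized count + 1) on the vertical axis against the number of genes detected in the library (axis in units of 1000) on the horizontal axis. Points are the 20 libraries, coloured by subset and treatment. Apart from Mr1, the zeros are in libraries with 13098 genes or fewer, and the Ly6Clo vehicle library with 5343 genes is at 0 for all 5 genes.

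Psmb8 and Psmb9, catalytic subunits that replace standard ones in the immunoproteasome, gave no call in any comparison. Psmb8 stood at 6207, 8579, 9200, 9606 and 8270 normalized counts in Ly6Chi vehicle libraries and at 8608, 9276, 10196, 8209 and 8408 with Ac-6-FP. In Ly6Clo libraries it stood at 12387, 10013, 8461, 11064 and 11141 with vehicle and at 10999, 10494, 13683, 9970 and 10806 with Ac-6-FP. Ly6Clo was higher in 9 of 10 mice, the exception being mouse 13, and the log2 difference of -0.33 ± 0.09 (SE) missed the threshold (adjusted p = 0.0548). It passed without mouse 13 (-0.38, adjusted p = 0.0164).

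Psmb9 ran from 556 to 2307 in Ly6Chi and from 862 to 2388 in Ly6Clo libraries and was higher in Ly6Clo in 5 of 10 mice (difference -0.10, interval -0.49 to 0.28). Psmb9 and Tap1 lie head to head, and 138 windows of 75 bases, 8.22% of those of Psmb9, stand in both genes. The sources do not say that counting used strand, so reads there could belong to either gene. The ratio of Psmb8 to Psmb5, the standard subunit it replaces, was 4.80 ± 0.44 in Ly6Chi and 7.51 ± 0.91 in Ly6Clo libraries of Ac-6-FP mice (SD, n = 5 each). With vehicle it was 6.26 ± 3.13 and 7.75 ± 1.58, and Ly6Clo lay above Ly6Chi in 9 of 10 mice. The ratios of Psmb9 to Psmb6 and of Psmb10 to Psmb7 had Ly6Clo above Ly6Chi in 6 of 10 mice each.

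Nlrc5, the regulator, was listed at 0 in 3 libraries and held 2 to 392 reads in the other 17. Its Ly6Chi values were 93.8, 2.14, 0, 191 and 233 with vehicle and 42.5, 0, 172, 57.6 and 163 with Ac-6-FP. Its Ly6Clo values were 209, 2.48, 0, 12.4 and 129 with vehicle and 43.5, 8.97, 469, 34.3 and 120 with Ac-6-FP. All groups overlapped, and the subset difference was -0.02 with an interval of -1.50 to 1.45 (adjusted p = 0.99).

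**Figure D3:**
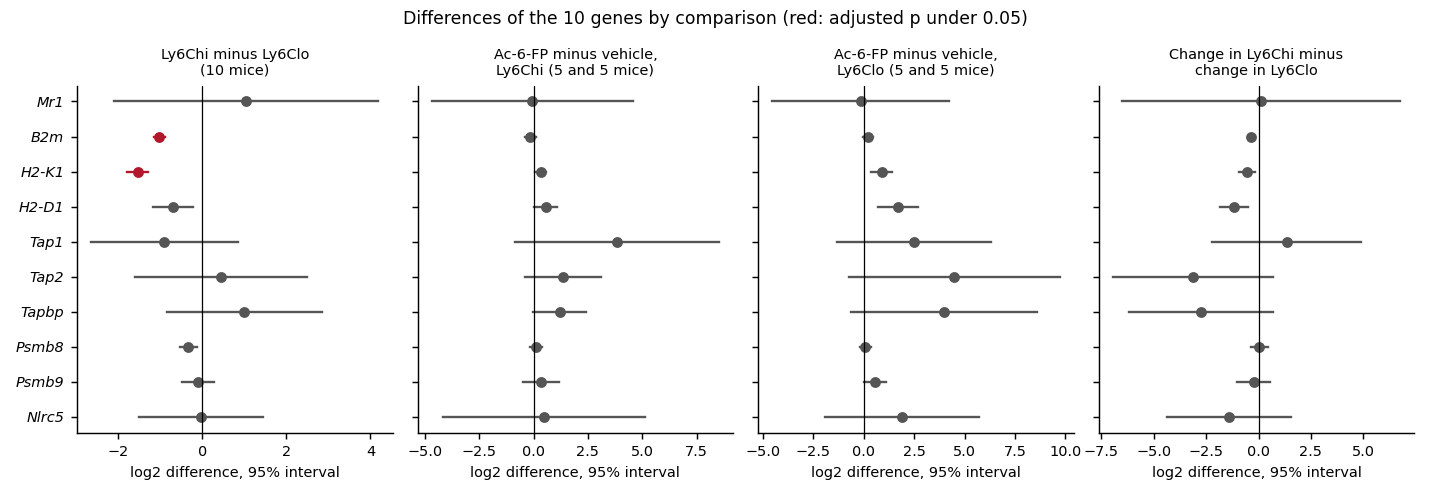
Log2 differences of the 10 genes with 95% intervals on the horizontal axis, 1 row per gene, for the subset comparison, for Ac-6-FP minus vehicle in each subset and for the difference of those changes. Red marks an adjusted p under 0.05. B2m (-1.03) and H2-K1 (-1.54) between the subsets are the 2 marked, and the intervals of Mr1 and Nlrc5 are several log2 units wide.

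Ac-6-FP was compared with vehicle to ask whether blocking MR1 was accompanied by other RNA levels of this machinery. In Ly6Chi cells none of the 10 genes passed the test by limma, where 0.0754% of all genes did, and 2 had an unadjusted p under 0.05, as 8.73% of all genes had. These were H2-K1 (0.34 ± 0.11 SE, adjusted p = 0.493) and H2-D1 (0.56 ± 0.23, adjusted p = 0.543). Exact permutation tests of the 5 against 5 libraries (two-sided, unadjusted, 2 of 40 run on single genes) gave p = 0.0159 and 0.0556, where the smallest possible is 0.00794. H2-K1 in all 5 Ac-6-FP mice lay above the vehicle median, but the lowest Ac-6-FP value (3923) was below the highest vehicle value (4232). None of the 10 genes had groups without overlap, which 1.35% of all genes had. edgeR also called 0 of 10.

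In Ly6Clo cells none of the 10 passed by limma, where 0.0522% of all genes did, and 3 had an unadjusted p under 0.05, as 9.31% of all genes had. H2-D1 differed by 1.71 ± 0.44 (SE, adjusted p = 0.452), H2-K1 by 0.89 ± 0.23 (adjusted p = 0.452) and Psmb9 by 0.56 ± 0.24 (adjusted p = 0.532), all toward higher values with Ac-6-FP. The exact permutation p, unadjusted, was 0.0159 for H2-D1, 0.0159 for H2-K1 and 0.0317 for Psmb9. For H2-D1, 4 of 5 vehicle libraries lay at 6113 to 14577 and the 5 Ac-6-FP libraries at 30970 to 64239, with vehicle mouse 15 (40057) among the latter. H2-K1 overlapped in the same way through mouse 15, whose 13132 exceeded the 12934 of Ac-6-FP mouse 17. B2m differed by 0.22 ± 0.12 (adjusted p = 0.564), and edgeR called 0 of 10.

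These treatment differences stand on a moving background. The median of all genes tested was 0.35 in Ly6Chi and 0.91 in Ly6Clo cells (Ac-6-FP minus vehicle), and 0.02 and 0.12 among the 2047 genes with a mean of at least 1000 normalized counts. Under quantile normalization the medians of all genes were -0.01 and 0.02, and the Ly6Clo differences were then 1.58 for H2-D1, 0.84 for H2-K1 and 0.45 for B2m, none of them called (adjusted p = 0.599 for each). With genes detected as a covariate H2-D1 differed by 1.16 and H2-K1 by 0.56 in Ly6Clo cells. The summed NK, T and MAIT cell markers of Ly6Clo libraries were 23618 to 47111 with vehicle and 24455 to 50151 with Ac-6-FP, and those of neutrophils 10238 to 57019 and 18924 to 124789.

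The gap between the subsets within a mouse was also compared between treatments. For B2m the Ly6Clo to Ly6Chi ratio was 1.62 to 1.95 in vehicle mice (median 1.80) and 2.13 to 2.61 in Ac-6-FP mice (median 2.21), without overlap, which 0.806% of all genes showed. The difference of the changes was -0.36 ± 0.07 (SE), with an exact permutation p of 0.00794, the smallest that 5 against 5 mice allow (unadjusted). Its limma p was number 4 from the smallest among 17248 genes and missed the threshold after adjustment over all genes (adjusted p = 0.803). The median difference of the changes was -0.27 over all genes tested. It was -0.11 over the 2047 genes with a mean of at least 1000 normalized counts. For H2-K1 the ratio was 1.75 to 3.10 with vehicle and 2.95 to 3.94 with Ac-6-FP (-0.56 ± 0.18, adjusted p = 0.83). For H2-D1 it was 0.66 to 2.10 and 1.60 to 2.93 (-1.15 ± 0.30, adjusted p = 0.83). Both overlapped (exact permutation p = 0.0159 for each, unadjusted), through mouse 15 on the vehicle side and mouse 18 on the Ac-6-FP side.

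No member passed the test of this difference by limma, where 0% of all genes did (0 of 17248, with 840 at an unadjusted p under 0.05), and edgeR called 0 of 10. Under quantile normalization B2m alone of all genes passed (-0.58, adjusted p = 0.00657). That setting replaces each value by the mean of its rank, and 10 other genes lay within 1.5-fold of the B2m mean. Few ranks thus set its values there, so little weight can be put on this call. Without the replicate block the adjusted p of B2m was 0.906.

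**Figure D4:**
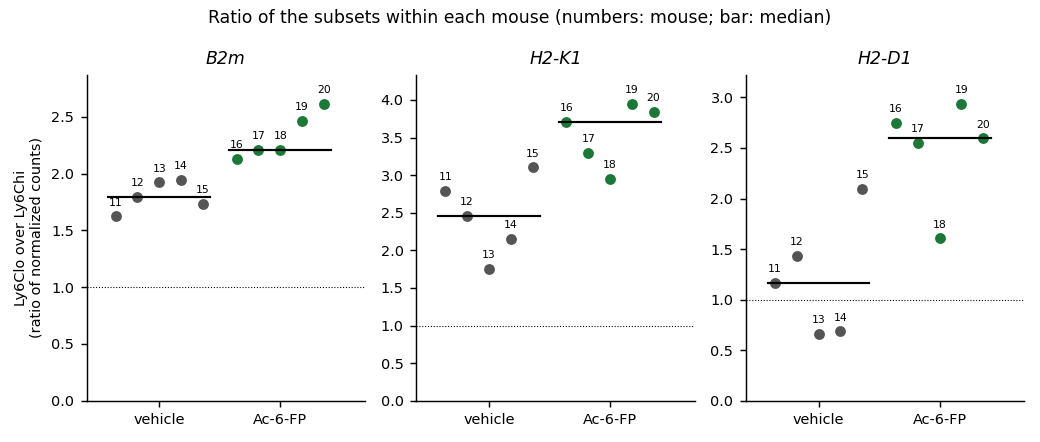
Ratio of the Ly6Clo to the Ly6Chi normalized count within each mouse on the vertical axis, for B2m, H2-K1 and H2-D1, by treatment on the horizontal axis. Points are mice, numbered, and bars are medians. For B2m the 5 Ac-6-FP mice (2.13 to 2.61) lie above the 5 vehicle mice (1.62 to 1.95), and for H2-K1 and H2-D1 vehicle mouse 15 overlaps the Ac-6-FP mice.

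Other genes of the pathway were read from 4 lists. Of 6 genes of peptide loading and trimming tested, none was called between the subsets, 5 of 6 had a positive fitted difference (Ly6Chi minus Ly6Clo), as 48.8% of all genes did (median 0.35 against -0.03 for all genes), and 4 of 6 had the higher group mean in Ly6Chi. Erap1, a trimming peptidase, had a fitted 0.49 but a mean of 853 normalized counts in Ly6Chi against 1107 in Ly6Clo, where the library of mouse 13 was at 0. Pdia3, a disulfide isomerase of the loading complex, was at 0.64 (adjusted p = 0.242) and the chaperone gene Canx at 0.22 (adjusted p = 0.24). Of 7 genes of proteasome catalysis and activation none was called either, and 6 of 7 had a positive fitted difference (median 0.19). The share called among all genes was 5.19%, so few calls would be found in lists of this size at that share.

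Of 16 other class I and class I-like heavy chains, 13 were in the table and 11 were tested, and 2 were lower in Ly6Chi and none higher, where 5.19% of all genes were called and 3.44% were lower in Ly6Chi (median -0.78, against -0.03 for all genes). Hfe, which binds the transferrin receptor and pairs with the same light chain, differed by -2.41 ± 0.28 (SE, limma adjusted p = 0.000164) and was lower in Ly6Chi in 10 of 10 mice. Fcgrt, the chain of the neonatal Fc receptor, differed by -0.99 ± 0.24 (adjusted p = 0.0324). Hfe and Fcgrt have means above 1000 normalized counts, and of the 2047 genes of at least that mean 218 passed as lower in Ly6Chi. H2-T22 (-0.57) and H2-M3 (-0.73) had negative values that were not called (adjusted p = 0.205 and 0.236). H2-T24 (3.44, adjusted p = 0.155, at 0 in 4 of 10 Ly6Clo libraries) and Cd1d2 (1.05, adjusted p = 0.432) had positive values that were not called.

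Of 19 regulators of class I transcription, 2 were called, both lower in Ly6Chi: Nfkb1 (-1.46, adjusted p = 0.00384), a subunit of NF-kappa B, and Ifngr1 (-0.58, adjusted p = 0.0296), a chain of the interferon gamma receptor. Of all genes 5.19% were called, 3.44% as lower in Ly6Chi. Nfkb1 and Ifngr1 have means above 1000 normalized counts, and of the 2047 genes of at least that mean 218 passed as lower in Ly6Chi. The list median was -0.05, against -0.03 for all genes.

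With Ac-6-FP none of the 4 lists had a call in either subset by limma. In Ly6Clo cells 18 of 19 regulators had a positive fitted difference with Ac-6-FP (median 1.91), against 70.5% of all genes (median 0.91). An unadjusted p under 0.05 was found for 6 of the 19 and for 9.31% of all genes. The Ly6Clo vehicle library of mouse 13 was at 0 for 14 of the 19, so the part of detection cannot be told apart from that of treatment here either. Irf8, an interferon regulatory factor of monocytes, ran from 0 to 731 with vehicle and from 865 to 1867 with Ac-6-FP, without overlap, which 1.5% of all genes showed in Ly6Clo cells (adjusted p = 0.532). The other heavy chains had a median of -0.22 there, with 5 of 11 positive. Canx in Ly6Chi cells ran from 24890 to 42321 normalized counts with vehicle and from 16014 to 22390 with Ac-6-FP, without overlap, which 1.35% of all genes showed there. Its difference was -0.71 in Ly6Chi and -0.52 in Ly6Clo, where the groups overlapped, and neither was called (adjusted p = 0.366 and 0.528). In Ly6Chi cells 15 of 19 regulators had a positive fitted difference (median 0.66), against 62.9% of all genes (median 0.35), and 11 of 19 had the higher group mean with Ac-6-FP. There 8 of the 19 were at 0 in 1 or more vehicle libraries.

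**Figure D5:**
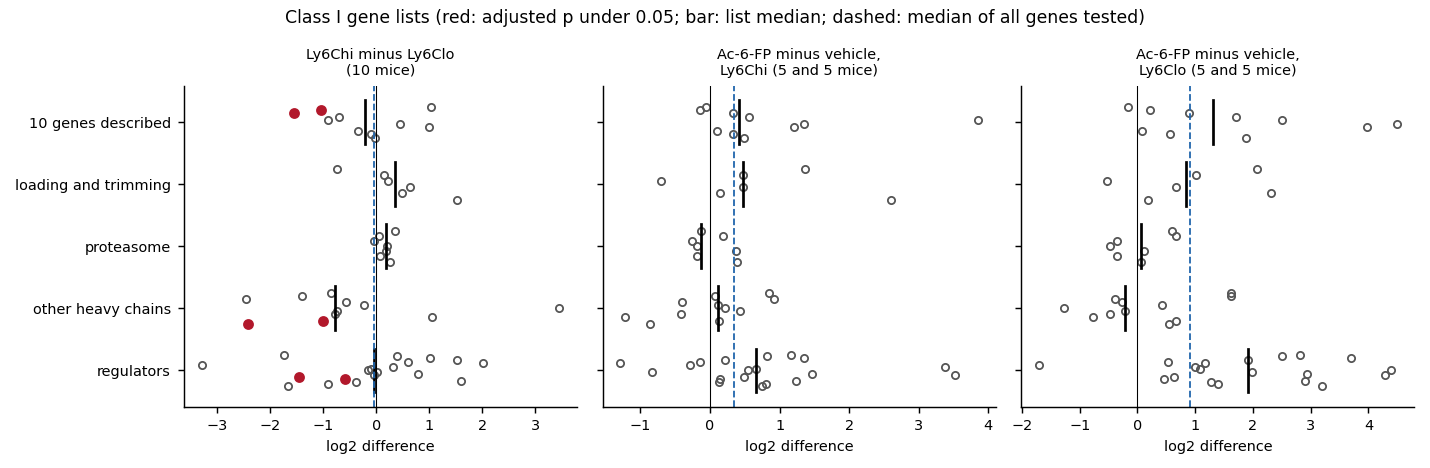
Log2 differences on the horizontal axis of the 10 genes and of 4 further lists of class I genes, 1 point per gene, for the subset comparison and for Ac-6-FP minus vehicle in each subset. Filled red points passed an adjusted p under 0.05, bars are list medians and dashed lines the median of all genes tested. Calls appear between the subsets only (6, all lower in Ly6Chi), and the dashed line lies at 0.91 in Ly6Clo cells with Ac-6-FP.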

How the data were processed

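RNA of sorted liver MoMac was sequenced in 20 libraries, 1 per subset and mouse. The authors mapped 75-base reads with STAR 2.4.0 to mm10 (GRCm38), counted those on constitutive regions of FAST DB genes and scaled the counts with DESeq size factors; the deposited values are such normalized counts, a signal without negative values. Each value above 0 gave whole reads (100% within 0.006 normalized counts of a whole number of reads). Genes with a mean of at least 10 in 1 group were tested with limma 3.58.1 (R 4.3.3) on log2(normalized count + 1), a scale that understates fold changes of low genes without zeros and can exceed the ratio of group means where a group holds zeros (Tap1 with Ac-6-FP in Ly6Chi, 14.4-fold fitted against a ratio of means of 1.98). Subsets were compared within mice, with the mouse as a block, treatments within a subset, and the change of the within-mouse difference between treatments. P-values were adjusted over all genes tested by Benjamini-Hochberg, with 0.05 as threshold.

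Libraries of 1 mouse are paired by the labels. Their residuals correlated at a median of 0.0338 (0.00334 to 0.25), against -0.00496 for different mice. The deposited signal was also read back as counts for edgeR 4.0.16 (quasi-likelihood) with all libraries, which called 584 genes between the subsets, and without mouse 15, whose step was least certain. The latter was added after seeing the data. Other alternatives were pseudocounts of 0.1 and 10, no filter and a filter at 100, quantile normalization, array weights, genes detected as a covariate, no block, either treatment alone and leaving out each mouse. Both tests were also run on simulated counts, with an outcome not reported here. Those counts had the same dispersion for all genes and no mouse effect. They therefore do not bear on the genes with values of 0 here. Python 3.11.15 with pandas 2.3.3 and numpy 2.4.6 made the tables.

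The rule named the 10 members, the 5 genes most like Mr1 and any gene of 4 pathway lists, which were counted whole. The list and marker genes given with values were chosen after their values were seen. Values of some single genes are not reported here. Members and lists were chosen with earlier results of these data known. Several other letter strings, among them longer forms of the kappa B element and an interferon response element that matched B2m, were also searched in the promoter windows. The 3 reported, and the spacing between them, were chosen after the matches were seen. Gene positions came from GENCODE vM21 and promoter sequences from RefSeq, both on GRCm38. Windows of 75 bases were compared between GENCODE transcripts on both strands. Intervals for reads cover counting error only, and p-values measure the spread between mice. The labels place no sample outside a group.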

Additional observations from a re-analysis of the deposited data

Results flagged for a closer look

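Dixon's test of the highest and lowest value in each group of 5 was run on 40 gene and group pairs, and chance marks about 1 in 20. It marked 3 values. H2-D1 in the Ly6Clo library of vehicle mouse 15 stood at 40057 normalized counts, above the 6113 to 14577 of the other 4 vehicle mice. Psmb8 in the Ly6Clo library of Ac-6-FP mouse 18 stood at 13683, above 9970 to 10999 in the other 4. Nlrc5 in the same library stood at 469, above 8.97 to 120 in the other 4.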

How the results depend on the processing

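B2m and H2-K1 stayed lower in Ly6Chi in every alternative run, and H2-K1 missed the threshold with vehicle mice alone (-1.26). Of 796 values of single genes under alternatives, 738 kept direction and call, 47 changed sign, 10 gained a call and 1 lost it, and none that changed sign was called. The cause was not tested.

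Between the subsets 896 genes and 2 of the 10 were called. Array weights gave 1512 and 4, genes detected as a covariate 1702 and 3, a filter at 100 949 and 3 (of 9, without Mr1), edgeR 584 (467 without mouse 15) and 2, vehicle mice alone 79 and 1, and Ac-6-FP mice alone 545 and 3, the last 2 settings with 5 mice each. Leaving out 1 mouse gave 2 to 4 of the 10 (4 without mouse 13). With the treatment 13 genes were called in Ly6Chi, against 5 with no filter, 4 with a filter at 100, 0 with quantile normalization, the covariate or edgeR, and 0 to 133 without 1 mouse (133 without mouse 11). In Ly6Clo 9 were called, against 2 with a pseudocount of 10, no filter, a filter at 100 or the covariate, 0 with quantile normalization or edgeR, and 0 to 103 without 1 mouse (103 without mouse 11). For the difference of the changes 0 genes were called, against 2 with a filter at 100, 1 with quantile normalization (B2m, 1 of the 10) and 0 to 4 without 1 mouse. Without the replicate block 987 genes and 3 of the 10 were called between the subsets and 3 for the difference of the changes, and Psmb8 gained its call (adjusted p = 0.0333).

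Signs changed as follows. Between the subsets, Tapbp was -0.032 with array weights and -0.38 with Ac-6-FP mice alone. Tap2 was -0.17 with a pseudocount of 10, -0.50 with array weights, -0.37 with edgeR, -0.22 with edgeR without mouse 15, -1.12 with Ac-6-FP mice alone and -0.42 to 0.73 without 1 mouse. Psmb9 was 0.0080 with vehicle mice alone. Nlrc5 was 0.15 with a pseudocount of 10, 0.24 with quantile normalization, 0.68 with vehicle mice alone and -0.45 to 0.34 without 1 mouse. With Ac-6-FP in Ly6Chi, Mr1 was 0.41 with array weights and -0.91 to 0.83 without 1 mouse, and Nlrc5 was -0.80 with quantile normalization, -0.13 with array weights, -0.87 with the covariate, -0.25 with edgeR and -0.70 to 1.79 without 1 mouse. In Ly6Clo, Mr1 was 1.16 with edgeR without mouse 15 and -1.14 to 0.96 without 1 mouse, Psmb8 -0.015 with quantile normalization and -0.028 with array weights, and Nlrc5 -0.38 with quantile normalization. For the difference of the changes, without 1 mouse, Mr1 was -1.86 to 1.66 (-3.85 with edgeR without mouse 15), Tap1 -0.37 to 2.17 and Psmb8 -0.14 to 0.14. Values of 0 limit what can be said of Mr1 (10 of 20 libraries) and of Nlrc5 and Tap1 (3 each).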
